A study of Mus musculus with 9 samples.

Results

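The genes described here encode the far upstream element binding proteins, their partner PUF60 and the helicase subunits of the general transcription factor TFIIH. They were chosen by name from the RNA-seq table: Fubp1, Fubp3, Khsrp (which encodes FUBP2), Puf60, Ercc2 and Ercc3, 6 genes of 19769, and all 6 were found and passed the filter on low values that left 11870 genes for testing. RNA was sequenced in 4 libraries from primary mouse embryonic fibroblasts (MEFs), FUBP1 binding was mapped by ChIP-seq in 1 MEF sample and nuclease-accessible chromatin by TACh-seq in 4 MEF samples. MEFs from Myc-Egfp+/+ mice, in which MYC carries GFP, had received 20 µM of the proteasome inhibitor MG-132 for 6 h, were separated by GFP intensity into low-MYC and high-MYC cells, and were plated overnight before RNA was taken. Both RNA groups therefore carry the tagged Myc allele and the inhibitor treatment, and no RNA from cells without the inhibitor is analysed here. Each group holds 2 technical replicates, so every p-value compares these libraries and does not cover variation between cultures or embryos. The TACh-seq samples are wild-type MEFs and KOKD MEFs, which lack Fubp1 and were transfected with Fubp2 siRNA for knockdown, 2 of each. All 4 name a single table of read positions in which no library is marked. Its label, wt1, points to wild-type replicate 1, but which of the samples its reads come from is not stated. Wild-type and KOKD cells were therefore not compared.

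FUBP1, FUBP3 and KHSRP share KH domains that bind single-stranded nucleic acid, and FUBP1 is known for binding the melted far upstream element of the MYC gene and activating its promoter. A short form of PUF60, known as FIR, represses MYC there, and both act through TFIIH, whose XPB subunit (Ercc3) melts promoter DNA and whose XPD subunit (Ercc2) opens DNA in nucleotide excision repair. KHSRP also promotes decay of mRNAs with AU-rich elements, and PUF60 helps to recognise the 3′ splice site.

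The 6 genes lie apart in the genome (mm10, positions as in the RNA-seq table with its ends set 1 base back to match the annotation). Fubp1 occupies chr3:152210422-152236826 on the plus strand and Fubp3 chr2:31572651-31617526 on the plus strand. Khsrp lies at chr17:57021051-57031522 and Puf60 at chr15:76070182-76080924, both on the minus strand. Ercc2 occupies chr7:19382010-19395694 on the plus strand. The GENCODE annotation gives Fubp1 20 transcripts, Fubp3 and Puf60 11 each, Ercc2 10, Khsrp 5 and Ercc3 3, and the RNA-seq values do not separate them.

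Promoter sequences of 4 of the 6 genes (Fubp1, Fubp3, Khsrp and Ercc2) were matched in RefSeq (GRCm38.p6), and they are shown because the TACh-seq reads described further on fall on them. Each runs from 250 bases before the RefSeq start to 50 bases from it onward, 5′ to 3′ on the gene's own strand, and capitals mark the motifs found on either strand.
Fubp1, chr3:152210172-152210471, plus strand: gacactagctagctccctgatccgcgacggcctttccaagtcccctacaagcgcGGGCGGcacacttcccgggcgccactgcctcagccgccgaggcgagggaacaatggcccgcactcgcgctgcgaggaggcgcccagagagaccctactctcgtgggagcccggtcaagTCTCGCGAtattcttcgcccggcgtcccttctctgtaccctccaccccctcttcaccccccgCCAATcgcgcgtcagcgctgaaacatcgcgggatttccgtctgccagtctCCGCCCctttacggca
Fubp3, chr2:31572401-31572700, plus strand: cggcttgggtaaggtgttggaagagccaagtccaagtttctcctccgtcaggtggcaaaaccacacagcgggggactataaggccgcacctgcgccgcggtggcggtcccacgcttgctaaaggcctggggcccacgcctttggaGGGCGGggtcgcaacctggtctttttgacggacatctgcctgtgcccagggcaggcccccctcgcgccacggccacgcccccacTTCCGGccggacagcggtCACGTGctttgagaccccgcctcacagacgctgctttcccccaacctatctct
Khsrp, chr17:57031458-57031757, minus strand: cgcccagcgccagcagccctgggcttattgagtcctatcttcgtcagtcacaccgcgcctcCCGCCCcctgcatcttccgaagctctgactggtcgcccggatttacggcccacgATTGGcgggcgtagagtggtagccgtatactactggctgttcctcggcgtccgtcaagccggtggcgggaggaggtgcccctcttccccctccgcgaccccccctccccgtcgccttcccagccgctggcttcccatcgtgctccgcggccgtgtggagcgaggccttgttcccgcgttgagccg
Ercc2, chr7:19381767-19382066, plus strand: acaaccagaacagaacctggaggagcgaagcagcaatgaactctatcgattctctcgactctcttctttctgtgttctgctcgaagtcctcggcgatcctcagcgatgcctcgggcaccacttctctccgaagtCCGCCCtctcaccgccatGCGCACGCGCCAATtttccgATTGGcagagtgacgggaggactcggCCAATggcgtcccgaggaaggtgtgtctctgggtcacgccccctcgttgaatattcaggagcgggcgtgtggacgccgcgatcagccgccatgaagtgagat

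Positions are counted from the RefSeq start, with negative numbers upstream. The Fubp1 promoter holds TCTCGCGA at -78 to -71, a sequence present in 0.995% of the 32851 promoters of the same length, along with a CCAAT box at -16 to -12 and 2 GC boxes (GGGCGG). The Fubp3 promoter holds the E-box CACGTG, the sequence that MYC-MAX dimers are known to prefer, at -3 to 2; 7.15% of all promoters hold it. An ETS core (CCGGAA, in 14.9% of promoters) lies at -21 to -16 of Fubp3, and a GC box lies further upstream. The Ercc2 promoter holds an NRF1-type sequence (present in 6.23% of promoters) at -98 to -89, which shares its last base with the first of 3 CCAAT boxes. The Khsrp promoter holds a GC box and a CCAAT box. A GC box was found in 4 of 4 promoters, against 35.7% of all promoters, and a CCAAT box in 3 of 4, against 37.4%. The CRE (TGACGTCA), the TATA box (TATAAA), the E2F-type sequence (TTTNNCGC) and the YY1-type sequence (GCCATNTT) were in 0 of 4. G and C made up 66.3% of the Fubp1 promoter, 65.3% of that of Fubp3, 68.0% of that of Khsrp and 58.7% of that of Ercc2, against a median of 52.7% over all promoters. These matches describe letters in the window and are not evidence of binding.

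The level of each gene was read as spike-in-normalized FPK. These are fragments per kilobase divided by the amount of synthetic ERCC RNA added in proportion to cell number. A value is thus a level per cell and per length. The paper describes division by transcript length. In low genes, however, the values match whole reads over the full span of the gene, introns included. A gene can thus be compared between libraries, while a level set against that of another gene also depends on their spans. The totals of these values ranged from 46320 to 48290 in the low-MYC libraries and from 102852 to 109089 in the high-MYC libraries, and replicates correlated across tested genes with Spearman's rho of 0.995 to 0.996. Read counts were not part of the values. In low genes with 1 annotated transcript, the steps between values gave an estimate of what a single read is worth. At transcript length, 33.7% to 37.2% of low values lay within 0.05 of a whole read, where 10% would fall there by spacing alone. A read was worth 2.24 and 2.54 times as much in the high-MYC libraries as in low-MYC replicate 1. By that estimate Fubp1 was covered by 339 to 418 reads per kilobase of gene span and Ercc2, the lowest of the 6, by 134 to 161. Of the 10 fibroblast markers, all had values above 0 in all 4 libraries, from Vim, the highest at 156 to 352, to Dcn, which was the lowest at 0.422 to 1.94.

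By normalized FPK Khsrp stood highest of the 6 genes, followed by Puf60, Fubp1, Ercc3, Fubp3 and Ercc2. This order was the same in each library. It also depends on the gene spans, which run from 10472 bp for Khsrp to 44876 bp for Fubp3. The order and the percentiles below are therefore not a ranking by number of mRNAs. Khsrp had a normalized FPK of 4.49 and 4.53 in the low-MYC libraries and 9.82 and 10.3 in the high-MYC libraries. Puf60 had 3.94 and 3.95 in low-MYC and 8.76 and 9.21 in high-MYC cells. Among the tested genes of each library, Khsrp stood at percentile 89.8 to 90.1 and Puf60 at 88.6 to 88.8. Fubp1 had 1.74 and 1.83 in low-MYC and 3.36 and 3.74 in high-MYC cells, at percentile 74.2 to 77.8. Fubp3, another KH-domain member of the family, had 0.814 and 0.816 in low-MYC and 1.71 and 1.81 in high-MYC cells, at percentile 58.6 to 60.4. For the TFIIH helicases, Ercc3 had 0.931 and 0.939 in low-MYC and 2.12 and 2.14 in high-MYC cells. Ercc2 had 0.701 and 0.693 in low-MYC and 1.504 and 1.479 in high-MYC cells, at percentile 53.7 to 56.6. Every high-MYC value lay above every low-MYC value for each of the 6 genes. The groups did not overlap, in either direction, for 99.1% of all tested genes. Neighbours in the order of levels did not overlap within either group.

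**Figure D1:**
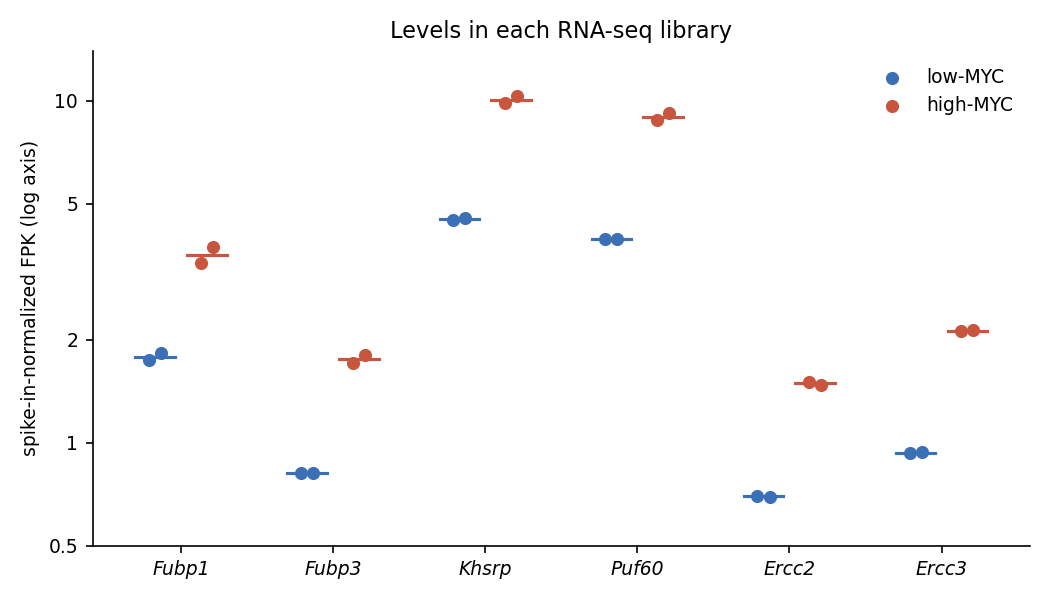
Spike-in-normalized FPK (log axis) of the 6 genes in each RNA-seq library, with low-MYC libraries in blue, high-MYC libraries in red and a bar at each group mean (n = 2 technical replicates). Each gene is higher in both high-MYC libraries, with Khsrp highest (4.49 to 10.3) and Ercc2 lowest (0.693 to 1.504).

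The first comparison asked how much mRNA of each gene a high-MYC cell holds relative to a low-MYC cell. The ratio of group means was 1.99 for Fubp1, 2.16 for Fubp3, 2.23 for Khsrp, 2.28 for Puf60, 2.14 for Ercc2 and 2.28 for Ercc3, against 2.07 for Myc itself and a median of 2.26 over tested genes. In limma on log2(normalized FPK + 0.1), which understates the change of low genes, the log2 fold change was 0.95 ± 0.07 (SE) for Fubp1, 1.02 ± 0.05 for Fubp3 and 1.14 ± 0.04 for Khsrp. It was 1.17 ± 0.04 for Puf60, 1.00 ± 0.05 for Ercc2 and 1.11 ± 0.04 for Ercc3. All 6 genes rose in limma past the threshold of 0.01 (Benjamini-Hochberg adjusted p 1.0e-05 to 3.5e-05), but 97.1% of tested genes did so and 0.0253% fell, with a median log2 fold change of 1.03. At a further threshold of 2-fold, Fubp3, Khsrp, Puf60 and Ercc3 passed, 4 of 6 against 55.1% of tested genes, while Fubp1 (0.952) and Ercc2 (0.998) lay just under a log2 fold change of 1. With a pseudocount of 1, which draws the fold change of low genes toward 0, 2 of the 6 (Khsrp and Puf60) passed against 12.2% of tested genes, and with a pseudocount of 0.01 all but Fubp1 passed, 5 of 6 against 84.9%. In bulk samples, a change in the mix of cells and a change in RNA per cell of 1 type cannot be told apart.

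The second comparison asked whether any of the genes moved apart from the median gene once the libraries had been brought to an equal median. On this scale none of the 6 genes was called (0 of 6 in limma at a Benjamini-Hochberg adjusted p under 0.01, 1 of 6 at an unadjusted p under 0.05), where 2.29% of tested genes were, 1.76% higher and 0.531% lower, and 33.1% passed the unadjusted p. Fubp1 gave the lowest estimate of the 6, a relative log2 fold change of -0.18 with a 95% interval of -0.28 to -0.08 (limma, unadjusted p 0.0068, adjusted p 0.052). The intervals of the others all included 0. They ran from -0.14 to 0.01 for Fubp3, -0.09 to 0.05 for Khsrp, -0.07 to 0.08 for Puf60, -0.20 to 0.06 for Ercc2 and -0.09 to 0.11 for Ercc3. In this fit the intervals therefore reach at most 0.28 on the log2 scale from the median gene, in either direction. That bound covers these technical replicates and this setting only. Fubp1 gave -0.21 ± 0.05 (SE) with no filter on low values and -0.19 ± 0.04 with libraries rescaled to the same upper quartile. Myc gave -0.13 (limma adjusted p 0.10), also short of the threshold. The number of genes called over the whole table rested on all 4 libraries: with any 1 left out, between 0 and 10 were called in place of 272, and 0 of the 6.

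**Figure D2:**
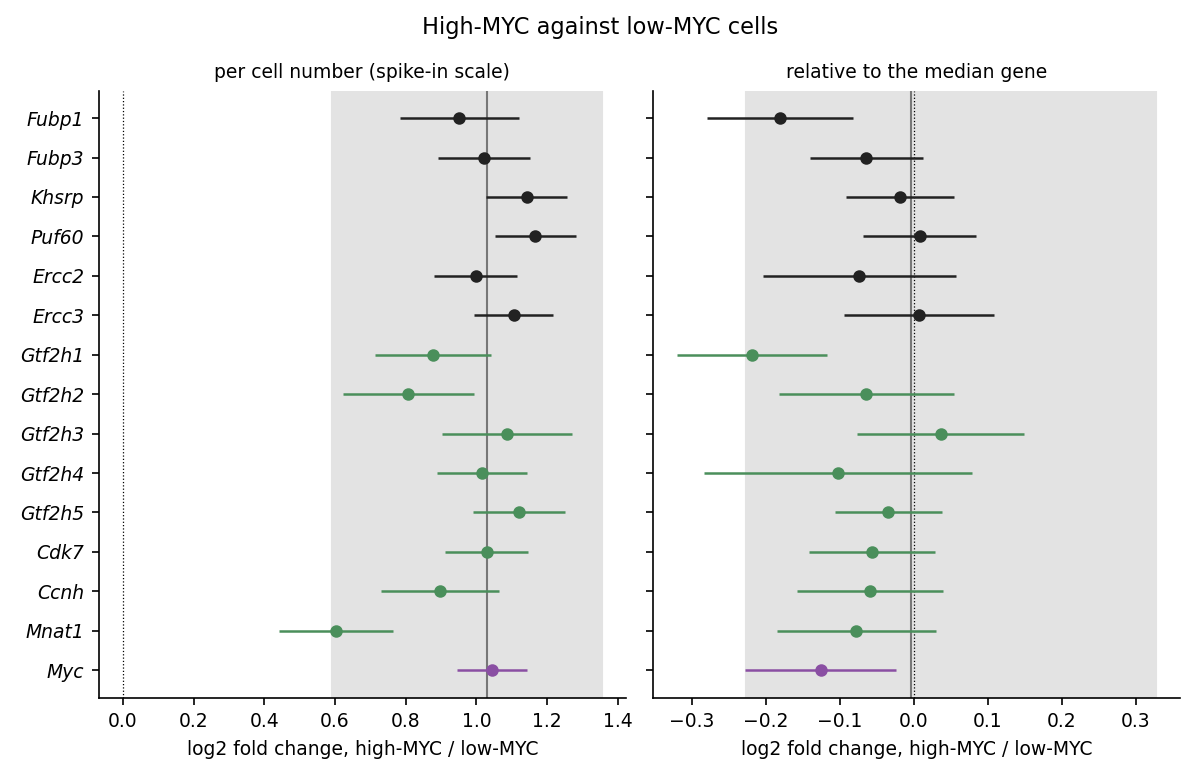
Log2 fold change of high-MYC over low-MYC cells with 95% intervals from limma, on the spike-in scale (left) and relative to the median gene (right), for the 6 genes (black), the other TFIIH subunits (green) and Myc (purple); the grey band spans the 5th to 95th percentile of the tested genes and the grey line is their median. Every gene shown lies above 0 on the left, and Fubp1 and Gtf2h1 lie lowest on the right at -0.18 and -0.22.

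A ratio of genes within a library does not depend on the spike-in or on any rescaling, so ratios were used to compare the groups. Their size also depends on the gene spans, 10472 bp for Khsrp, 26405 bp for Fubp1 and 44876 bp for Fubp3. The shares and ratios below are therefore of normalized FPK and not of mRNA number. Khsrp made up 63.7% and 63.2% of the summed level of Fubp1, Fubp3 and Khsrp in the low-MYC libraries and 66.0% and 65.0% in the high-MYC libraries. Fubp1 made up 24.7% and 25.5% in low-MYC and 22.6% and 23.6% in high-MYC cells, and Fubp3 held 11.4% to 11.6% throughout. The groups did not overlap for Khsrp or Fubp1. The value of Khsrp was 2.58-fold and 2.48-fold that of Fubp1 in low-MYC cells and 2.93-fold and 2.76-fold in high-MYC cells. Fubp1 was 0.442 and 0.463 of Puf60 in low-MYC cells and 0.384 and 0.406 of it in high-MYC cells, a difference of -0.20 in the log2 ratio, the largest of the 15 pairs. The ratio of Puf60 to Ercc3 was 4.24 and 4.20 in low-MYC and 4.13 and 4.31 in high-MYC cells, and the groups overlapped. Ercc3 was 1.33-fold and 1.36-fold Ercc2 in low-MYC cells and 1.41-fold and 1.45-fold in high-MYC cells. The groups did not overlap for 10 of the 15 pairs, against 63.1% of all pairs of tested genes with a value above 0 in each library. The design of 2 against 2 libraries cannot give an exact two-sided permutation p below 0.333, which for these pairs becomes 0.5 after Benjamini-Hochberg adjustment over the 15, so none of these differences can pass a threshold.

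The other 8 subunits of TFIIH rose as Ercc2 and Ercc3 did: 8 of 8 were higher at an adjusted p under 0.01 (limma) and 4 of 8 at least 2-fold, with a median log2 fold change of 0.96. Normalized FPK within the complex was spread widely, and so were the gene spans, from 6010 bp for Gtf2h4 to 150272 bp for Mnat1. The order of subunits is therefore not a ranking by number of mRNAs. Gtf2h5, a small subunit that stabilises TFIIH, was the highest at 3.25 and 3.38 in low-MYC and 7.09 and 7.56 in high-MYC cells, and Mnat1, the assembly factor of its CDK-activating kinase, the lowest at 0.095 and 0.097 against 0.188 and 0.208. By mean level Ercc3 came after Gtf2h5 and Gtf2h4, and Ercc2 came after Cdk7 and before Gtf2h3. Gtf2h5 had the highest log2 fold change (1.12) and Mnat1 the lowest (0.60), on a scale that understates the change of a gene whose level lies near the pseudocount. Relative to the median gene, 7 of the 8 had a negative estimate, against 51.5% of tested genes, and none was called in limma (0 of 8, with 1 of 8 at an unadjusted p under 0.05, against 33.1% of tested genes); Gtf2h1, a core subunit, gave -0.22 with a 95% interval of -0.32 to -0.12 (limma adjusted p 0.040).

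**Figure D3:**
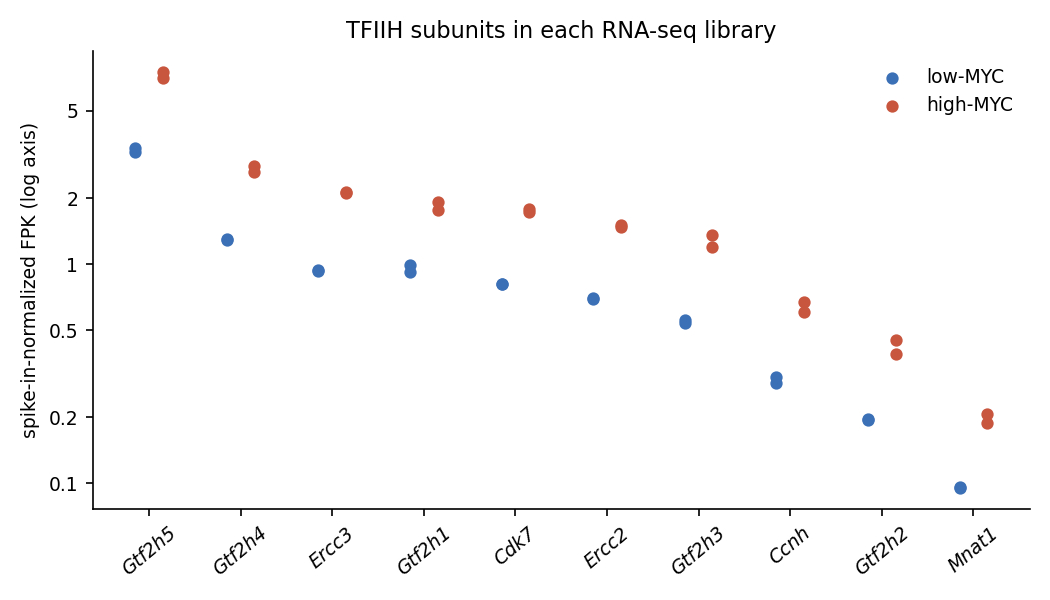
Spike-in-normalized FPK (log axis) of the 10 TFIIH subunits in each RNA-seq library, ordered by mean level, with low-MYC libraries in blue and high-MYC libraries in red. Levels, which also depend on gene span, run from Gtf2h5 (3.25 to 7.56) to Mnat1 (0.095 to 0.208). Each subunit is higher in both high-MYC libraries.

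Genes whose products work with these proteins are set here against the 97.1% of tested genes that rose and the 55.1% that rose at least 2-fold. The 2-fold count uses the pseudocount of 0.1, which understates low genes, so lists of high genes pass it more easily. With a pseudocount of 0.01, 84.9% of tested genes passed. The first list was drawn up for the MYC promoter, with Myc itself in it, and not all its genes encode proteins that bind there. Of these genes 9 of 9 rose and 9 of 9 rose at least 2-fold, from Myc (log2 fold change 1.04) to Dek (1.24). Dek encodes a chromatin protein. Of splicing factors that act beside PUF60 at the 3′ splice site, 9 of 9 rose at least 2-fold, from Rbm17 (1.04) to Srsf1 (1.26). The median ratio of group means was 2.20 for the MYC promoter list and 2.16 for the splicing list, against 2.26 over tested genes. By these medians neither list rose more than the tested genes. Of genes for mRNA decay through AU-rich elements, the process of KHSRP, 20 of 20 rose and 13 of 20 at least 2-fold, from the deadenylase Parn (0.75) to the exosome subunit Exosc4 (1.14). By ratio of group means this list ran from 2.02 to 2.41, and Parn, whose level lies near the pseudocount, was the highest. The 13 of 20 and the place of Parn thus depend on the pseudocount. Of 11 other genes of nucleotide excision repair, where XPB and XPD open the damaged DNA, 8 were tested and all 8 rose, 4 of them at least 2-fold, from Ercc6 (0.77) to the damage sensor subunit Ddb1 (1.21). Ercc6, also a gene of low level, had a ratio of group means of 2.12, against 2.32 for Ddb1. Xpa, Ercc8 and Ddb2 fell under the minimum mean, which is harder to reach for a gene of long span. Relative to the median gene 0 genes of these lists were called in limma, and 3 of 9, 2 of 9, 6 of 20 and 2 of 8 tested genes of the lists in turn passed an unadjusted p under 0.05, against 33.1% of tested genes.

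For each gene the tested gene with the most similar levels over the 4 libraries was found by distance on the log2 scale. The nearest gene to Fubp1 was Dnajb4, which encodes an HSP40 co-chaperone, with levels of 1.75, 1.83, 3.35 and 3.81 against 1.74, 1.83, 3.36 and 3.74 for Fubp1 (distance 0.026, closest of 11868 genes). Dnajb4 is also the head-to-head neighbour of Fubp1: it is transcribed from the opposite strand and its start lies 120 bp upstream of that of Fubp1. The nearest gene to Fubp3 was Cdk7, the kinase subunit of TFIIH (distance 0.028). The nearest genes to the others were Ndufb8 for Khsrp, Selenok for Puf60, Trim3 for Ercc2 and Afg3l1 for Ercc3. Such likeness also depends on the gene spans. It is common in 4 libraries, since 145 to 400 genes lay within 0.25 of each of the 6.

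Of the cell type markers, those of macrophages moved most between the groups. The summed level of 15 macrophage markers was 0.948 and 1.30 in the low-MYC libraries and 29.8 and 31.1 in the high-MYC libraries, with Lyz2 the highest at 18.0 and 18.9 in high-MYC cells. Of these markers 10 were tested and 9 were called higher relative to the median gene, against 1.76% of tested genes. Except for Cd68 and Cd14, the tested markers had low-MYC means under 0.1 and passed the filter only through their high-MYC values. The filter thus favoured such calls, and their number is not separate support for a difference. Adgre1, C1qa and Tyrobp were listed at 0 in low-MYC replicate 1. The summed level of 10 fibroblast markers was 334 and 339 in low-MYC and 802 and 818 in high-MYC cells, and 3 of 10 (Pdgfra, Dcn and Lum) were called higher relative to the median gene. Of 14 markers of endothelial, epithelial, neural, muscle, erythroid and lymphoid cells, 9 were in the table and 3 were tested (Kdr, Tubb3 and Des), none of them called (0 in limma, 2 at an unadjusted p under 0.05, which 33.1% of tested genes passed). The part of macrophages or other cells in the levels of the 6 genes was not tested.

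TACh-seq, in which nuclei are cut briefly with the nuclease Cyanase and the released fragments are sequenced, is given as 4881417 read positions. Reads whose midpoint lay within 1 kb of the start of a gene (as the RNA-seq table gives it) were counted, with exact Poisson intervals at 95% that cover counting error only. All 6 genes, each protein-coding, had reads at their start, as did 76.7% of tested genes and 84.7% of the tested protein-coding genes. Small counts were rare: 2769 tested genes had 0 reads, 4 had 1 and 5 had 2. The positions therefore look limited to called regions, so a count of 0 is not a measured absence of reads. The counts were 179 (154 to 207) for Fubp1, 281 (249 to 316) for Fubp3, 808 (753 to 866) for Khsrp, 187 (161 to 216) for Puf60, 105 (85.9 to 127) for Ercc2 and 99 (80.5 to 121) for Ercc3. The median of tested genes was 127 and their quartiles were 48 and 205. For the tested protein-coding genes the median was 140 and the quartiles were 86 and 216. Ercc2 and Ercc3 thus lay under either median and their intervals overlapped, as did those of Fubp1 and Puf60. Myc had 226 reads, and the other TFIIH subunits had from 0 (Gtf2h2) to 254 (Gtf2h1).

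**Figure D4:**
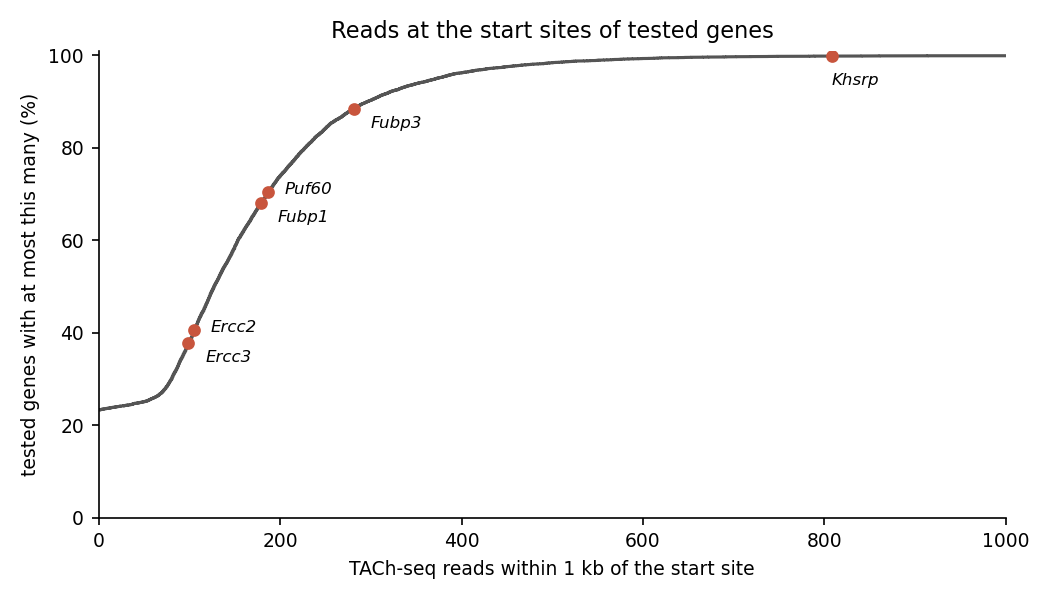
Share of tested genes with at most a given number of TACh-seq reads within 1 kb of the start site, with the 6 genes as red points. The library of a read is not marked. Ercc2 and Ercc3 lie below the midpoint of the distribution, and Khsrp, with 808 reads, lies at percentile 99.8.

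Khsrp, the gene of the protein that was knocked down in KOKD cells, ranked 19 of 11869 tested genes by reads, at percentile 99.8. The reads lay on 1 side of its start: 94.8% were upstream, with a median position of -399, whereas in the other 5 genes 36.3% to 72.4% were upstream and the median lay between -74 and 37. A stretch from -850 to -50, chosen after the profile was seen, held 753 of the 808 reads. Between -700 and -50 each 50 bp held 44 to 69 reads, and the next 50 bp held 8. The reads were spread over both strands (412 plus and 396 minus), and 98.8% had a mapping score of at least 30. Of the reads, 233 overlapped the Khsrp promoter printed above, against 83 for Fubp1, 85 for Fubp3 and 74 for Ercc2. Since no library is marked, whether the Khsrp reads come from wild-type or KOKD cells was not tested.

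The reads of the other genes were narrower or fell on both sides of the start. Fubp1 had its densest 100 bp just past its start (0 to 100, with 44 reads), and the region of reads there, joined over gaps of up to 600 bp, ran from -2006 to 3593, so that it covered the start of Dnajb4. Fubp3 had its densest 100 bp at 100 to 200 with 56 reads and a second group of reads between -550 and -300. Puf60, Ercc2 and Ercc3 were each densest in the 100 bp before the start, with 50, 44 and 27 reads. The region over the start held 219 reads per kilobase in Khsrp and 47.0 to 96.0 in the other 5 genes. Puf60 also had a region of 117 reads over its 3′ end. Fubp1 was the sole member with the start of another gene within 2 kb. Ercc3, at chr18:32240300-32270151 on the plus strand, had the narrowest region over its start, 1486 bp wide. Ercc2 is overlapped on the opposite strand by the lncRNA Gm26852 (level 0.013 to 0.039) and by the end of Klc3 (level 0.229 to 0.539), and the RNA libraries were made with a stranded kit.

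**Figure D5:**
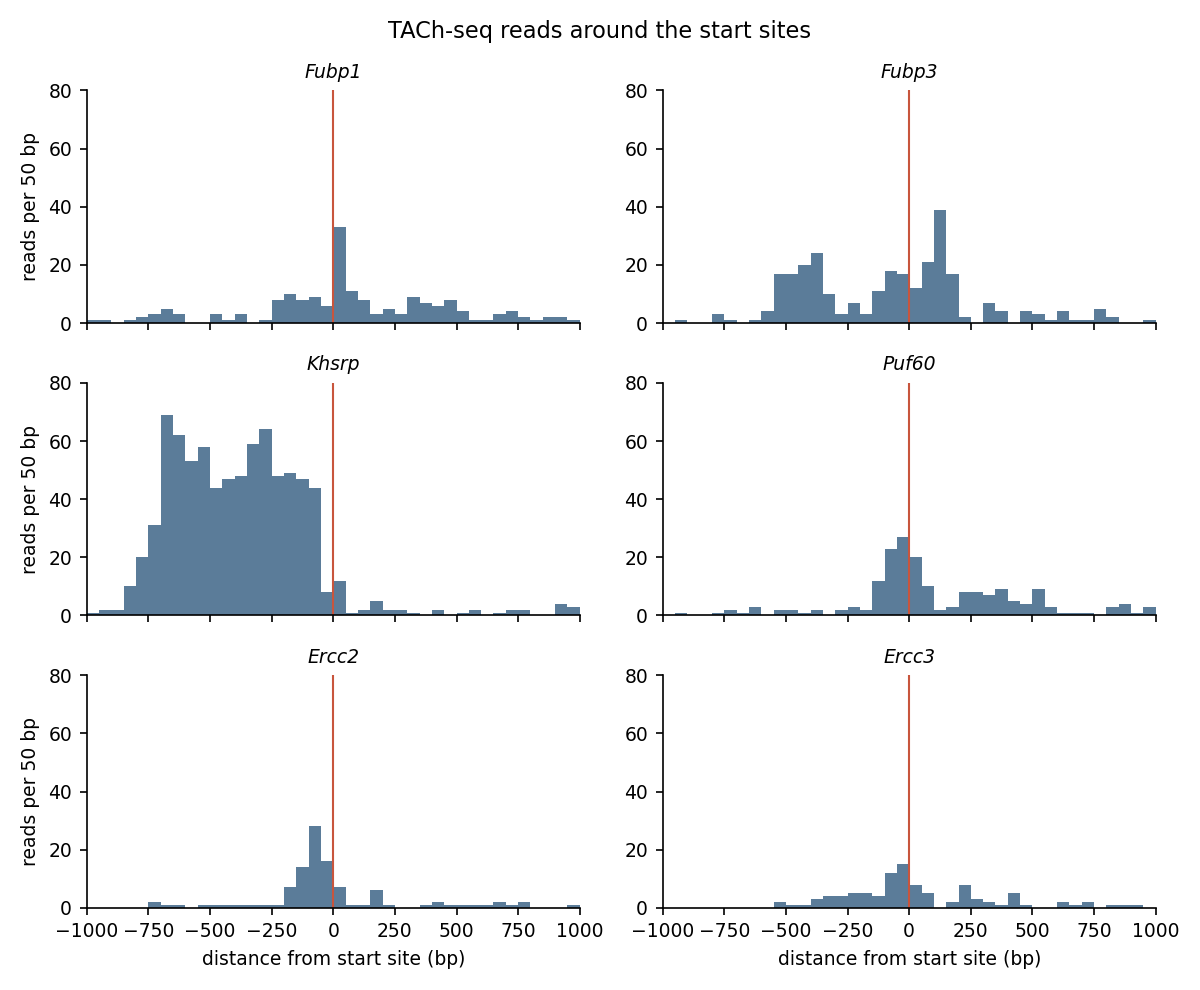
TACh-seq reads per 50 bp from 1 kb upstream to 1 kb downstream of each start site (red line), with upstream to the left for every gene and 1 vertical scale. Khsrp holds up to 69 reads per 50 bp upstream of its start and at most 12 downstream, and the other 5 genes peak at 15 to 39.

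FUBP1 ChIP-seq, from 1 sample of primary MEFs that formaldehyde (1%) had cross-linked over 8 min, was read as 166 peaks on chromosome 15, where Puf60 is the single member of the 6. No FUBP1 peak overlapped Puf60 (0 peaks) and none lay within 5 kb of it. The nearest peak, chr15:75634401-75640000, lay 430182 bp away, and the next, chr15:76904201-76911400, lay 823277 bp away on the other side. A peak overlapped 12.2% of the tested genes of the chromosome, 56 of 459, and 18 of the 53 genes (33.96%) with a level at least that of Puf60. The peak list gives positions with no heights, so weaker binding at Puf60 could not be read from it. The paper reports that the ChIP antibody reacts in part with FUBP2, the product of Khsrp, so the peaks may include sites of FUBP2.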

How the data were processed

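RNA-seq, TACh-seq and ChIP-seq files of mouse embryonic fibroblasts were analysed. For RNA-seq the authors trimmed low-quality bases, aligned reads to the mm10 transcriptome with TopHat and quantified them in Partek. The paper describes division by transcript length and by a spike-in score, and the deposited signal values are spike-in-normalized FPK. In low genes these values match division by the span of the gene. Total counts per library are not given. For TACh-seq and ChIP-seq the authors aligned reads with Bowtie2, and ChIP-seq peaks came from SICER; the submitters' processing notes name both tools. The deposited TACh-seq table gives read positions and a mapping score per read. Versions are not given in the sources used here.

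Genes with a mean of at least 0.1 were tested with limma 3.58.1 (lmFit, eBayes with trend) in R 4.3.3 on log2(normalized FPK + 0.1), with Benjamini-Hochberg adjustment over 11870 genes and a threshold of 0.01, on the spike-in scale and after rescaling each library to the same median. The procedure was tested on simulated data. In counts over gene names, 1 repeated name was taken once, which leaves 11869. Ratios within a library were compared by an exact permutation test. Reads within 1000 bp of a start were counted by midpoint, and coordinates are 1-based. Genes named are the 6 members, Myc, the genes with the highest and lowest change of each list and any called relative to the median gene, the nearest gene of each member, and the highest marker and those at 0; other names were chosen after their values were seen. The members and lists were chosen with earlier results of these data known. Alternatives covered the pseudocount, filter, trend, scaling, replicate block, threshold, libraries, window, mapping score and distance to peaks. Protein sequences and the promoters of Puf60 and Ercc3 were not used here. Other steps ran in Python 3.11.15 with scipy 1.17.1, numpy 2.4.6 and pandas 2.3.3, and plots were drawn in matplotlib 3.10.9.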

Additional observations from a re-analysis of the deposited data

How the results depend on the processing

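Rescaling libraries to the same median ended the calls made on the spike-in scale: 209 genes were then higher in place of 11530, 65 at least 2-fold in place of 6540, and 0 of the 6 members, with log2 fold changes of -0.18 (Fubp1), -0.064 (Fubp3), -0.0185 (Khsrp), 0.00795 (Puf60), -0.0737 (Ercc2) and 0.00716 (Ercc3); 0 of them were at least 2-fold higher. A pseudocount of 0.01 put 10076 genes at least 2-fold higher, with 5 members, and a pseudocount of 1 put 1448, with 2 members. Relative to the median gene, 272 genes were called, 65 with no filter on low values, 1530 at an adjusted p under 0.05 and 0 with a replicate block; same-numbered libraries deviated together with a correlation of 0.081 across genes, so the numbers were not taken to pair them, and with the block Fubp1 gave an adjusted p of 0.043 (limma). The relative estimates of Puf60 and Ercc3, close to 0, changed sign with no filter (-0.0244 and -0.0236) and with the upper quartile scaling (-0.0045 and -0.0047).

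Leaving out each library in turn, on the spike-in scale, kept the 6 members higher, with 11575 to 11745 genes higher, 5683 to 7374 genes and 4 to 5 members at least 2-fold, and log2 fold changes of 0.88 to 1.03 for Fubp1, 0.98 to 1.06 for Fubp3, 1.11 to 1.18 for Khsrp, 1.13 to 1.202 for Puf60, 0.99 to 1.01 for Ercc2 and 1.10 to 1.11 for Ercc3. Relative to the median gene it left 7 calls without low-MYC replicate 1, 10 without low-MYC replicate 2 and 0 without either high-MYC library, a range of 0 to 10; Puf60 ranged from -0.0069 to 0.023 and Ercc3 from -0.029 to 0.043. The lone library of a group was assumed to vary like the other group. Pairs without overlap numbered 11 to 14. Relative to the median gene 0 of the 6 members were called under any alternative run. All 6 had TACh-seq reads in every window tried, and Khsrp had 485 within 500 bp and 874 within 2 kb. With 2 technical replicates per group and no known read counts, small changes against the median gene are beyond these data.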
